A study of Mus musculus with 24 samples.

Results

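The duodenum, the first stretch of the small intestine, was set against the ileum, the last stretch, in vitamin D-deficient mice. The 6 libraries are columns 1 to 3 of each region, out of 24 samples in the series, and they were chosen by their column names in the deposited tables (duodenum 1 to 3 and ileum 1 to 3 below). The mice were wild type C57BL6J, labelled minusD and described as vitamin D-deficient, with no treatment given. The columns are named Vehicle and were taken as that group, the only untreated one of each region. The labelled deficient replicates 1 to 4 of each region carry the ages 12, 10, 13 and 10 with no unit, replicates 1 to 3 are male and replicate 4 is female, and the column numbers are not tied to those replicates. All 6 libraries contained the Y-linked transcript Ddx3y (13.0 to 18.6 FPKM, fragments scaled by transcript length and library depth) and at most 0.123 FPKM of Xist, the transcript of the inactive X chromosome. A comparison pair of 4 duodenal and 4 ileal libraries came from wild type C57BL6J mice given 3 injections of 1,25-dihydroxyvitamin D3, 1 ng per g of body weight, 48, 24 and 6 h before the end. Among the labelled treated replicates 1 to 4, the ages are 14, 10, 10 and 13, the first 2 are female and the other 2 male. The labels do not say which layers of the gut wall were taken, nor whether libraries with one number came from 1 mouse.

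The duodenum receives acid chyme, bile and pancreatic juice and is the main site of iron and folate uptake. The ileum takes back conjugated bile acids and the vitamin B12 complex, and its crypts are rich in Paneth cells, which secrete antimicrobial peptides. Regional identity of the epithelium is known to be held by transcription factors, among them GATA4 and PDX1 proximally and the Hox clusters along the trunk. In bulk tissue, fewer cells of a type and less RNA per cell cannot be told apart.

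The values of both regions were brought to 1 scale by median ratios, and 11882 genes that reached 1 FPKM in at least 3 of the 6 columns were tested with limma on log2(FPKM + 1). Differences are duodenum minus ileum on that log2 scale with their standard error, which understates the change of genes with low values, and adjusted p-values are Benjamini-Hochberg over all tested genes, two-sided, with n = 3 libraries a region. At an adjusted p of 0.05, 1868 genes (15.7%) were called, 1047 higher in the duodenum (8.81%) and 821 higher in the ileum (6.91%). With at least a 2-fold difference there were 881 (7.41%), 487 duodenal (4.1%) and 394 ileal (3.32%). The 3 duodenal and 3 ileal values were apart for all 1868, as they were for 34.9% of all tested genes. Remarks below that called genes did not overlap describe their values and add no support to the calls. The median difference over all tested genes was 0.03, the median absolute difference of the called genes was 0.96, and 35 genes were at least 16-fold higher in the duodenum and 30 in the ileum. Exact permutation of 3 against 3 libraries cannot give a two-sided p below 0.1, so the calls rest on a spread shared over genes. Without duodenum 1, duodenum 2, ileum 1 or ileum 2 the count of calls was 921, 897, 915 or 947, and with the library number as a block it was 3492. On the values as deposited the split turned to 647 higher in the duodenum and 1428 higher in the ileum (31.2% duodenal against 56.0%), and with upper quartile scaling 42.6% were duodenal. Single gene differences below are therefore differences relative to the median gene. A gene that passed the filter only through the region where it was high had to differ, so counts and medians over a gene list describe its tested members alone. Leaving out a library of that region takes such a gene below the filter, so it goes untested and drops out of list counts. List counts are to be read against the 15.7% called among all tested genes, and a list near that share is not set apart by its count.

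Epithelial genes were well expressed in every library of both regions, which cannot tell duodenum from ileum. Epcam, an epithelial adhesion protein, was at 904, 939.8 and 1135 FPKM in the duodenum and 1308, 1370.4 and 1400.3 in the ileum, without overlap. Villin (Vil1), a brush border protein, was at 1091, 922 and 787 FPKM in the duodenum and 892, 1066 and 730.0 in the ileum. Of 15 stomach genes, 13 did not pass the filter on low values, Gkn2 and Muc5ac at 0 in all 6 libraries among them, while Gkn3 and Ctse did (values below). Cyp24a1, the enzyme that degrades the hormone and is induced by it, was at no more than 0.14 FPKM. Recovered whole reads gave 24434669 to 30274718 reads a duodenal library and 18898393 to 31163559 an ileal one, over the 14424 genes whose values came out whole. Libraries numbered 3 stood apart from 1 and 2 in both regions. They held less Akp3, Lct and Abcc2 (values below) and more Reg3b, an antibacterial lectin, at 1578, 2084 and 41755 FPKM in the duodenum and 8895, 4437 and 41983 in the ileum. Without both of them 2345 genes were called.

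The transcription factors of regional identity separated the regions in both directions. Of 30 tested members, 7 were higher in the duodenum and 10 in the ileum. Their median difference was -0.21. Pdx1, the homeobox factor of pancreas and proximal duodenum (mm9 chromosome 5, 148081535 to 148089584), was at 32.9, 26.1 and 24.0 FPKM in the duodenum and 0.0417, 0.198 and 0.236 in the ileum (log2 difference 4.62 ± 0.16, adjusted p = 2.01e-05). Onecut2, a cut homeobox factor, was at 17.4, 14.6 and 17.2 FPKM in the duodenum and 0.226, 0.114 and 0.308 in the ileum (log2 difference 3.84 ± 0.14, adjusted p = 2.01e-05). Both were present throughout the duodenum and at trace level in every ileal library. Gata4, the zinc finger factor of jejunal and duodenal enterocytes, was at 38.9, 33.8 and 28.6 FPKM in the duodenum and 4.46, 5.07 and 3.01 in the ileum (log2 difference 2.76 ± 0.20, adjusted p = 0.000315). Its relative Gata6 was at 59.3, 53.6 and 37.1 FPKM in the duodenum and 20.6, 18.9 and 20.9 in the ileum, a difference of 1.24. The remaining 3 that were higher in the duodenum were Nr0b2, Ppargc1a, the coactivator of mitochondrial genes, at 1.15, and Creb3l3, an activator of apolipoprotein genes, at 1.02. The duodenal count was 3 without duodenum 1, 2 without duodenum 2 and 4 without duodenum 3. In each case Pdx1, Onecut2 and Nr0b2 did not pass the filter and were not tested.

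Among the factors higher in the ileum the difference was largest for Osr2, an odd-skipped zinc finger factor, at 2.39, 6.49 and 5.68 FPKM in the duodenum and 66.0, 66.2 and 66.3 in the ileum (log2 difference -3.60 ± 0.29, adjusted p = 0.000497). Nr1h4, which encodes the bile acid receptor FXR, was at 14.7, 13.9 and 13.2 FPKM in the duodenum and 90.4, 71.2 and 77.1 in the ileum (log2 difference -2.42 ± 0.14, adjusted p = 9.62e-05). Nr5a2 (-1.18), Foxa1 (-1.18), Isx, the repressor of retinoid uptake genes (-1.04), Maf (-0.82) and Foxa3 (-0.78) followed. The general enterocyte factors differed little: Hnf4a by -0.48 (adjusted p = 0.0489), Cdx1 by -0.61 (adjusted p = 0.0435) and Cdx2 by -0.45 (adjusted p = 0.114). The Hnf4a and Cdx1 calls were lost with any 1 library left out. Hnf4g, at 181, 183 and 129 FPKM in the duodenum and 132, 71.2 and 94.1 in the ileum, was called only with the library number as a block (adjusted p = 0.0431 against 0.094). The ileal count was 6 without ileum 2.

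Hox genes mark position along the trunk. Of 29 listed, 16 did not pass the filter on low values. Of 13 tested members, 10 were higher in the ileum and 0 in the duodenum, with a median of -1.41, and several passed the filter through the ileum alone. With no filter or with quantile normalization 1 was called higher in the duodenum. The step was steep for the middle members of the clusters. Hoxc8 was at 0.0282, 0.0511 and 0.0259 FPKM in the duodenum and 6.41, 6.96 and 8.31 in the ileum (log2 difference -2.98 ± 0.14, adjusted p = 3.73e-05). Hoxb9 was at 0.0488, 0.0736 and 0.0784 FPKM in the duodenum and 6.75, 10.3 and 8.16 in the ileum (log2 difference -3.12 ± 0.16, adjusted p = 7.39e-05). Hoxb8 was at 0.188, 0.166 and 0.104 FPKM in the duodenum and 3.90, 4.42 and 3.69 in the ileum (log2 difference -2.12 ± 0.13, adjusted p = 0.000126). All 3 were at trace level in every duodenal library and clearly present in every ileal one. The anterior members Hoxa5 (0.04) and Hoxb2 (-0.16) were close to equal and were not called. The count of Hox calls was 3 without ileum 1, 3 without ileum 2 and 4 without ileum 3. In each case Hoxc8, Hoxb9 and Hoxb8 did not pass the filter and were not tested.

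**Figure D1:**
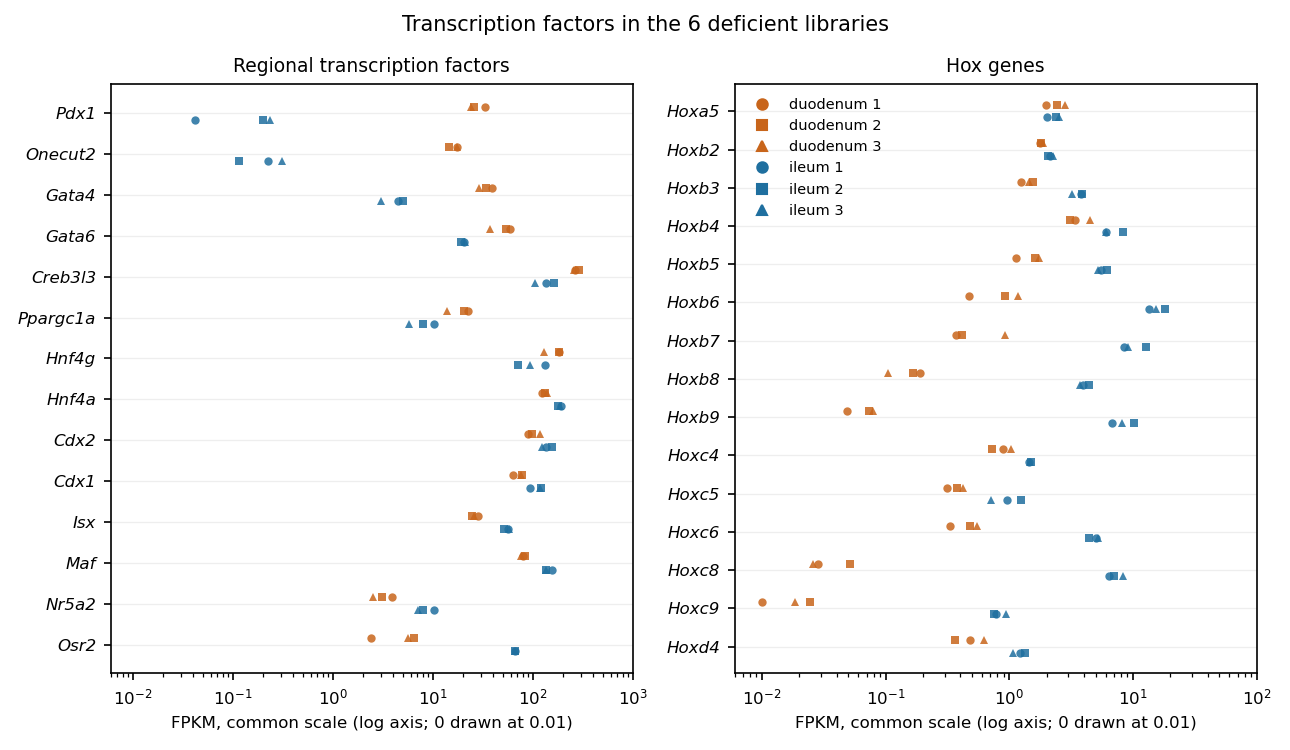
Normalised level in FPKM on a common scale (log axis) of regional transcription factors (left) and Hox genes (right), 1 point per library, orange for the duodenum and blue for the ileum, with symbols for library numbers 1 to 3. Pdx1, Onecut2 and Gata4 lie far to the right in the duodenum, the Hnf4 and Cdx factors nearly coincide, and Hoxb6 to Hoxb9, Hoxc6 and Hoxc8 lie far to the right in the ileum.

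Genes that carry bile acids back from the lumen were among those with the largest differences in the tissue. Of 10 tested members, 6 were higher in the ileum and 1 in the duodenum (Nr0b2), and the median was -1.80. Fabp6, the ileal bile acid binding protein (mm9 chromosome 11, 43409551 to 43415042), was at 0.985, 9.04 and 3.80 FPKM in the duodenum and 5077, 7614 and 9794 in the ileum, the largest difference of any called gene (log2 difference -10.63 ± 0.56, adjusted p = 7.39e-05). The apical sodium-dependent bile acid transporter Slc10a2 (mm9 chromosome 8, 5085623 to 5105232) was at 2.14, 2.32 and 1.81 FPKM in the duodenum and 229.6, 119 and 225 in the ileum (log2 difference -5.90 ± 0.26, adjusted p = 3.17e-05). Both were present at trace level in every duodenal library, far below all 3 ileal values. The basolateral exporter is a dimer of Osta and Ostb. Osta was at 139.7, 124 and 121 FPKM in the duodenum and 436, 564 and 619 in the ileum (log2 difference -2.05 ± 0.18, adjusted p = 0.000801). Ostb was at 155, 135 and 261 FPKM in the duodenum and 389.6, 374 and 952 in the ileum, and its call (adjusted p = 0.045) was lost under 6 alternatives. Both subunits were thus also well expressed in the duodenum.

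The hormone and receptor side of bile acid handling showed the same split. Fgf15, the ileal hormone that lowers hepatic bile acid synthesis (mm9 chromosome 7, 152082437 to 152086858), was at 0, 0.115 and 0 FPKM in the duodenum and 19.5, 48.2 and 15.4 in the ileum (log2 difference -4.62 ± 0.38, adjusted p = 0.000571). It was listed at 0 in duodenum 1 and 3. Nr0b2, which encodes the corepressor SHP, was the exception, at 8.40, 4.47 and 4.00 FPKM in the duodenum and 0.389, 0.715 and 0.0859 in the ileum (log2 difference 2.21 ± 0.28, adjusted p = 0.00293). Nr0b2 was thus higher in the region where its known activator Nr1h4 was lower. The efflux pump Abcc2 was at 129.5, 118 and 31.0 FPKM in the duodenum and 53.1, 47.6 and 13.5 in the ileum, lowest in library 3 of each region, and was called higher in the duodenum only with the block (adjusted p = 0.00104 against 0.271). The block likewise called the transporter Slco2b1 (0.51, adjusted p = 0.0486 against 0.117), which took the duodenal count from 1 to 3. Without any 1 of the 3 duodenal libraries that count was 0, as Nr0b2 then did not pass the filter and was not tested. Abcc3 differed by 0.39 (adjusted p = 0.61), and Slc10a1, the hepatic uptake transporter, did not pass the filter on low values.

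**Figure D2:**
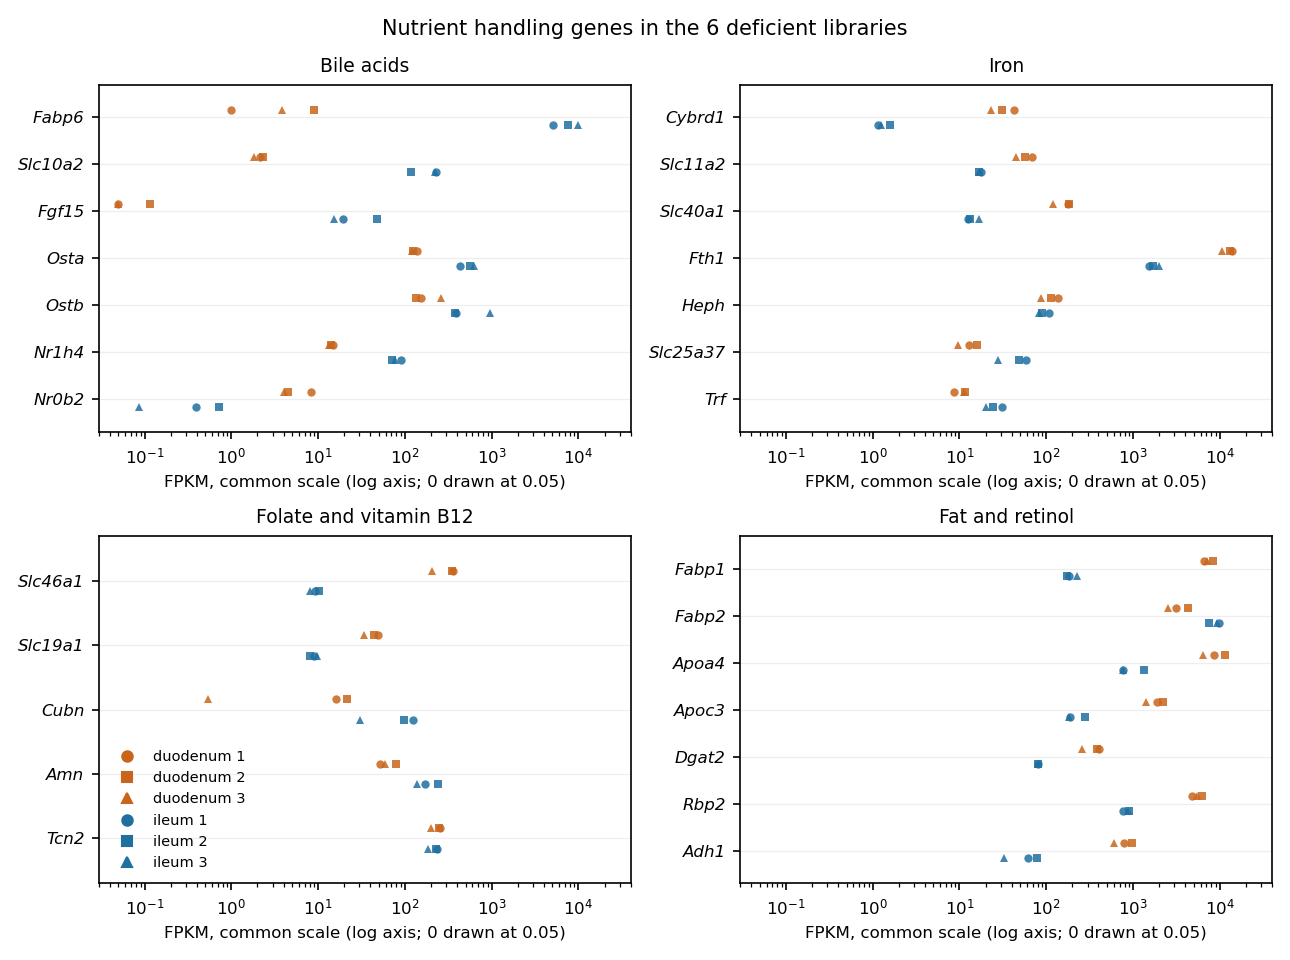
Normalised level in FPKM on a common scale (log axis, 0 drawn at 0.05) of genes for bile acids, iron, folate and vitamin B12, and fat and retinol, 1 point per library, orange for the duodenum and blue for the ileum. Fabp6 is far higher in the ileum, Fabp1 shows the opposite order, and Cubn in duodenum 3 lies far below the other duodenal points.

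Iron uptake showed the reverse order. Of 17 tested iron genes, 6 were higher in the duodenum and 3 in the ileum, with a median of 0.48. The apical steps were duodenal: the ferric reductase Cybrd1 (mm9 chromosome 2, 70955980 to 70980983) was at 42.6, 31.2 and 23.3 FPKM in the duodenum and 1.16, 1.58 and 1.25 in the ileum (log2 difference 3.80 ± 0.22, adjusted p = 0.000117). The ferrous iron importer Slc11a2 (DMT1) was at 69.4, 56.5 and 44.6 FPKM in the duodenum and 17.6, 16.7 and 16.6 in the ileum (log2 difference 1.66 ± 0.17, adjusted p = 0.00148). The basolateral exporter Slc40a1 (ferroportin) was at 176, 181 and 119 FPKM in the duodenum and 12.6, 13.3 and 16.7 in the ileum (log2 difference 3.38 ± 0.20, adjusted p = 0.000126). All 3 were highest in duodenum 1 or 2 and lowest of the duodenal libraries in duodenum 3, and none overlapped the ileum. Ferritin heavy chain (Fth1), the iron store, reached 13724, 13065 and 10654 FPKM in the duodenum against 1547, 1692 and 2012 in the ileum (log2 difference 2.83 ± 0.30, adjusted p = 0.00158). Ferritin light chain (Ftl1) differed by only 0.41 and was not called.

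The exporter's partner oxidase Heph was at similar levels in both regions, 137, 114 and 86.1 FPKM in the duodenum and 108, 89.2 and 83.5 in the ileum. A pair of regulators was also called in the duodenum, Epas1, the hypoxia factor HIF-2 alpha (1.14, adjusted p = 0.0438), and Ireb2, an iron-responsive RNA binding protein (1.20, adjusted p = 0.0302), but 10 and 7 of the alternatives lost these calls. Higher in the ileum were Slc25a37, the mitochondrial iron importer (-1.71), Trf, the plasma iron carrier transferrin (-1.17), and the reductase Steap3 (-0.75). The transferrin receptor Tfrc (0.66) and the iron chaperone Pcbp1 (0.66) were called higher in the duodenum only with the block (adjusted p = 0.0158 and 0.0241 against 0.0913 and 0.0678).

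Folate transport was duodenal and one part of the vitamin B12 receptor was ileal. The proton-coupled folate transporter Slc46a1 (mm9 chromosome 11, 78279199 to 78285447) was at 363, 353 and 206 FPKM in the duodenum and 9.27, 10.1 and 8.16 in the ileum (log2 difference 4.88 ± 0.23, adjusted p = 4.76e-05). The reduced folate carrier Slc19a1 was at 49.5, 44.1 and 33.8 FPKM in the duodenum and 9.04, 8.09 and 9.81 in the ileum (log2 difference 2.11 ± 0.17, adjusted p = 0.000532). Neither overlapped between regions. The receptor for the vitamin B12 complex pairs amnionless with cubilin. Amn was at 51.2, 80.0 and 58.8 FPKM in the duodenum and 169, 243 and 139.8 in the ileum (log2 difference -1.51 ± 0.25, adjusted p = 0.00846). Cubn was at 16, 21.6 and 0.546 FPKM in the duodenum and 123, 98.2 and 30.3 in the ileum, its value in duodenum 3 far below the other duodenal ones. Its difference of -3.11 was not called (adjusted p = 0.0857) but was with the block (adjusted p = 0.00545), which made 2 rather than 1 of the 8 tested members higher in the ileum. The plasma carrier Tcn2 (0.11), its receptor Cd320 (0.12), Mmachc (0.03) and Abcc1 (-0.37) were not called. The median of the 8 was 0.07.

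The fatty acid binding proteins exchanged places along the gut. Fabp1, the liver-type protein that also serves chylomicron formation in enterocytes (mm9 chromosome 6, 71149821 to 71155017), was at 6512, 8262 and 7219 FPKM in the duodenum and 181, 175 and 228 in the ileum (log2 difference 5.23 ± 0.23, adjusted p = 3.14e-05). Fabp2, the intestinal type, was abundant in both regions, at 3165, 4253 and 2555 FPKM in the duodenum and 9695, 7472 and 9308 in the ileum (log2 difference -1.43 ± 0.34, adjusted p = 0.0315), though 7 alternatives lost that call. Fabp4, the adipocyte type, was at 57.8, 95.8 and 67.1 FPKM in the duodenum and 292, 227 and 217 in the ileum (log2 difference -1.74 ± 0.22, adjusted p = 0.00321). With Fabp6, 3 of the 6 tested members were higher in the ileum and 1 in the duodenum, with a median of -0.84. Fabp3 and Fabp5 differed by -0.25 and -0.22 and were not called, and Fabp7 did not pass the filter.

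For 5 genes, among them Fabp1 and Fabp6 with their opposite orders, letters known for enterocyte factors occur near the start site. Shown are the windows from 250 bases before to 50 after that site. They come from RefSeq on GRCm38.p6, run 5′ to 3′ in the direction of the gene, and were picked after the values were seen. Capitals mark TTTATG, the letters of a caudal (CDX) site, or CAAAGTCCA, those of an HNF4 site, found on either strand. Fabp1 lies on the plus strand at chr6:71199629-71199928. Alpi, intestinal alkaline phosphatase, lies on the minus strand at chr1:87101557-87101856, and Cyp3a11, a drug-oxidizing cytochrome, on the minus strand at chr5:145879805-145880104. Fabp6 lies on the minus strand at chr11:43601513-43601812 and Slc10a2 on the minus strand at chr8:5105238-5105537.
Fabp1: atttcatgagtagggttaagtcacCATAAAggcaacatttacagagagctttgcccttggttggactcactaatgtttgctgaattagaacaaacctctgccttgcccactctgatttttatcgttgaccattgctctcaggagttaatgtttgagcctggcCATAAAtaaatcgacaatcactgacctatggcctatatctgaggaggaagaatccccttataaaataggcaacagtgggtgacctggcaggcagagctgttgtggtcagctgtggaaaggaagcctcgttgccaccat
Alpi: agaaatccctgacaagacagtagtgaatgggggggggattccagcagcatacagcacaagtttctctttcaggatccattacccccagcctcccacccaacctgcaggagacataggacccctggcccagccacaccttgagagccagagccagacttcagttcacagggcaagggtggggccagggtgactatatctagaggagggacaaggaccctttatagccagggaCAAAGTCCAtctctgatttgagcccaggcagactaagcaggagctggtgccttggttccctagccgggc
Cyp3a11: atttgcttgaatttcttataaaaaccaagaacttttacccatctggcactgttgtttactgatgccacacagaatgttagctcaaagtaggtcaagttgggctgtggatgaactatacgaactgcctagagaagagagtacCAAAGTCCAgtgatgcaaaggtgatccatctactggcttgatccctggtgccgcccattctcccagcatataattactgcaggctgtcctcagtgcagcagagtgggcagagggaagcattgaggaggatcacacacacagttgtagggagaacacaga
Fabp6: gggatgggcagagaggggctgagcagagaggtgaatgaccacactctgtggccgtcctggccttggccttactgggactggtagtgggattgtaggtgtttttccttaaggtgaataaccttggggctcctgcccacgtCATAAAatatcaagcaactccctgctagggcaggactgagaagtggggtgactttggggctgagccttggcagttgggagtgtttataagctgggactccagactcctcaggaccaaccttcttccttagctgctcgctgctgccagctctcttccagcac
Slc10a2: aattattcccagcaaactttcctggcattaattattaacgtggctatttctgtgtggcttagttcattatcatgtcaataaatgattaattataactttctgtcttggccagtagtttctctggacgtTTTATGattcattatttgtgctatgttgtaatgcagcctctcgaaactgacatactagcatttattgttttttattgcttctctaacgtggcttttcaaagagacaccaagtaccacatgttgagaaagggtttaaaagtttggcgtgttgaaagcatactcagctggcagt
Fabp1 and Alpi were called higher in the duodenum and Fabp6 and Slc10a2 in the ileum. The level of Cyp3a11 is not reported here. CDX letters occurred in 11.9% of all 32851 windows, in 6.9% of those of tested genes and in 7.8% and 12.3% of the windows of genes called at least 2-fold higher in the duodenum and ileum. HNF4 letters occurred in 0.5% of all windows and of those of tested genes, in 10 of 461 (2.2%) of the duodenal ones and in 2 of 317 (0.6%) of the ileal ones. Further letters scanned were also more frequent in both called sets than in windows of tested genes. TATA box letters (TATAAA) occurred in 7.8% of the tested, 15.6% of the duodenal and 14.2% of the ileal windows. For GATA letters (AGATAA) the shares were 6.8%, 12.1% and 9.1%, and for HNF1 letters (GTTAAT) 4.5%, 6.7% and 6.6%. None of the 5 windows held both CDX and HNF4 letters, so no marked stretches overlap, and a match describes the window only. Windows were matched for 368 of the 487 duodenal and 253 of the 394 ileal genes.

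Among genes that turn dietary fat into chylomicrons, nearly all that were called were higher in the duodenum. Of 27 tested members, 12 were higher in the duodenum and 1 in the ileum, with a median of 0.48. Apoc3, an apolipoprotein of these particles, was at 1910.0, 2226 and 1403 FPKM in the duodenum and 186, 279 and 184 in the ileum (log2 difference 3.09 ± 0.26, adjusted p = 0.000661). Dgat2, which makes triglyceride, was at 402, 381 and 255 FPKM in the duodenum and 80.6, 80.6 and 80.3 in the ileum (log2 difference 2.06 ± 0.20, adjusted p = 0.00112). Apobec1, which edits the apolipoprotein B transcript, was at 43.6, 43.6 and 49.1 FPKM in the duodenum and 19.6, 19.2 and 22.1 in the ileum (log2 difference 1.12 ± 0.13, adjusted p = 0.00183). Apoa4, another apolipoprotein of these particles, was at 8659, 11574 and 6490.1 FPKM in the duodenum and 769, 1357 and 764 in the ileum. The regions did not overlap for any of these 4, and Mttp, the lipid loader of apolipoprotein B, was called too, at 1.09. The main structural apolipoproteins did not differ detectably, with Apob at 0.27 (adjusted p = 0.723) and Apoa1 at -0.05 (adjusted p = 0.948). The other triglyceride enzyme Dgat1 (0.66) was called only with the block (adjusted p = 0.00922 against 0.052). The duodenal count was 7 without duodenum 1, 5 without duodenum 2, 5 without ileum 1 and 7 without ileum 2, and 5 with quantile normalization.

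Of 22 tested genes of vitamin A handling, which shares these enterocytes, 10 were higher in the duodenum and 1 (Isx) in the ileum, with a median of 0.79. Rbp2, the cellular retinol binding protein of enterocytes, was at 4779, 6215 and 5399 FPKM in the duodenum and 759, 909.6 and 882 in the ileum (log2 difference 2.68 ± 0.25, adjusted p = 0.000937). The dehydrogenase Adh1 was at 789, 969.6 and 598 FPKM in the duodenum and 62.1, 77.5 and 32.5 in the ileum (log2 difference 3.81 ± 0.34, adjusted p = 0.000773), and Adh4 was at 20.2, 15.9 and 11.3 FPKM in the duodenum and 0.413, 0.86 and 0.669 in the ileum (log2 difference 3.33 ± 0.22, adjusted p = 0.000223). All 3 were far lower in every ileal library than in any duodenal one. The carotenoid cleaver Bco2 (1.75), the scavenger receptor Scarb1 (1.89), the retinol saturase Retsat (1.66), the retinal oxidizer Aldh1a3 (1.33), Lrat, which esterifies retinol (1.22), and the reductase Rdh11 (0.55) were called too, and so was pancreatic lipase (Pnlip), which belongs with the pancreatic transcripts below. Not called without the block and called with it were Bcmo1, the beta-carotene oxygenase (0.91, adjusted p = 0.0196 against 0.0854), Rdh7 (1.78, 0.005 against 0.0969) and, in the ileal direction, Aldh1a1 (-1.64, 0.0285 against 0.0881). Among the rest, Rbp4 (-0.48), Dhrs3 (0.28), Aldh1a2 (0.12), Cyp26b1 (-0.10), Rara (0.00) and Rdh16 (-0.36) were not called, and Adh7 did not pass the filter.

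Sugar digestion and uptake was mostly duodenal. Of 20 tested members, 13 were higher in the duodenum and 1 in the ileum, with a median of 1.49. The basolateral glucose exporter Slc2a2 was at 577, 498 and 301 FPKM in the duodenum and 51.3, 38.9 and 22.3 in the ileum (log2 difference 3.60 ± 0.35, adjusted p = 0.00114). The apical carrier Slc2a7 was at 93.4, 100.4 and 56.2 FPKM in the duodenum and 12.0, 12.1 and 9.34 in the ileum (log2 difference 2.76 ± 0.24, adjusted p = 0.000661). Ketohexokinase (Khk), which begins fructose breakdown, was at 761, 842 and 759 FPKM in the duodenum and 207, 227 and 184 in the ileum (log2 difference 1.93 ± 0.17, adjusted p = 0.000706). The sodium-glucose importer Slc5a1, the fructose carrier Slc2a5 and the disaccharidase Sis followed at 1.82, 1.61 and 1.21. Lactase (Lct), at 495, 465 and 109.7 FPKM in the duodenum and 107, 133 and 17.8 in the ileum, was lowest in both libraries numbered 3 and was called only with the block (adjusted p = 0.00119 against 0.136). The single ileal member was Mlxipl, the sugar-sensing transcription factor ChREBP, at 3.25, 3.00 and 0 FPKM in the duodenum and 20.9, 20.1 and 7.51 in the ileum, where the 0 in duodenum 3 is as listed. That call was lost without ileum 1, without ileum 2, with a pseudocount of 0.1, with no filter and on recovered reads. The duodenal count was 7 without duodenum 1, 6 without duodenum 2 and 7 without ileum 2, and 7 with quantile normalization.

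Protein digestion divided by enzyme. Tmprss15 (enteropeptidase), which activates trypsinogen in the duodenal lumen, was at 66.2, 49.2 and 59.1 FPKM in the duodenum and 0.194, 0.194 and 0.361 in the ileum (log2 difference 5.56 ± 0.15, adjusted p = 9.43e-06). Naaladl1, a brush border dipeptidase, was at 44.5, 57.6 and 18.4 FPKM in the duodenum and 1443, 1680.4 and 921 in the ileum (log2 difference -5.13 ± 0.43, adjusted p = 0.000614). Xpnpep2, an aminopeptidase for proline bonds, was at 14.2, 11.7 and 5.98 FPKM in the duodenum and 233, 238 and 118 in the ileum (log2 difference -4.09 ± 0.37, adjusted p = 0.000796). The first was thus at trace level in every ileal library, and the other 2 were far above the duodenum there. In all, 3 of 16 tested brush border peptidases were higher in the duodenum and 6 in the ileum, with a median of -0.53, and the duodenal count was 1 without duodenum 1 and 1 without duodenum 2. Among peptide and amino acid carriers 1 was higher in the duodenum and 6 in the ileum of 17 tested. Slc1a1, the glutamate and aspartate importer, was at 4.35, 4.24 and 5.53 FPKM in the duodenum and 55.1, 43.7 and 46.1 in the ileum (log2 difference -3.11 ± 0.15, adjusted p = 4.76e-05). Slc3a1, the heavy chain of the cystine carrier, differed by -0.96 and the glutamine carrier Slc1a5 by -1.12. The ileal count was 3 without ileum 1 and 3 without ileum 2, and with the block 3 were higher in the duodenum.

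Phosphate uptake and the phosphatases were at opposite ends. The sodium-phosphate importer Slc34a2 was at 0.945, 1.95 and 1.47 FPKM in the duodenum and 163, 112 and 126 in the ileum (log2 difference -5.78 ± 0.21, adjusted p = 2.01e-05). Akp3, the alkaline phosphatase of the duodenal brush border (mm9 chromosome 1, 89021583 to 89024487), was at 3599, 3469 and 495 FPKM in the duodenum and 8.65, 8.61 and 2.76 in the ileum, the largest duodenal difference (log2 difference 8.03 ± 0.78, adjusted p = 0.00115). Duodenum 3 held far less Akp3 than the other duodenal libraries and still exceeded every ileal value. Alpi was at 2031, 2013 and 873 FPKM in the duodenum and 240.1, 253 and 161 in the ileum (log2 difference 2.83 ± 0.37, adjusted p = 0.00354). Enpp3, which splits nucleotides, was at 306, 282 and 204 FPKM in the duodenum and 14.9, 10.7 and 7.03 in the ileum (log2 difference 4.51 ± 0.27, adjusted p = 0.00013). Of 7 tested members, 3 were higher in the duodenum and 1 in the ileum, with a median of 1.11. The duodenal count was 5 without duodenum 3, and 5 with the block.

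Electrolyte carriers split evenly, with 8 of 29 tested members higher in each region and a median of 0.12. Carbonic anhydrase 2 (Car2), the cytosolic source of bicarbonate, was at 14.0, 20.3 and 13.8 FPKM in the duodenum and 0.351, 0.731 and 0.569 in the ileum (log2 difference 3.45 ± 0.19, adjusted p = 8.84e-05). Car4, the membrane-bound form, was at 9.98, 8.55 and 18.7 FPKM in the duodenum and 121, 68.0 and 237 in the ileum (log2 difference -3.31 ± 0.46, adjusted p = 0.00441). The pair of enzymes thus ran in opposite directions. Guanylin (Guca2a), a luminal peptide that stimulates fluid secretion, was at 176, 254 and 147 FPKM in the duodenum and 1554, 1575 and 1778 in the ileum (log2 difference -3.12 ± 0.24, adjusted p = 0.000454). Slc5a8, the carrier of short-chain fatty acids (mm9 chromosome 10, 88348737 to 88392250), was at 0.0297, 0.122 and 0.476 FPKM in the duodenum and 68.8, 47.4 and 89.3 in the ileum (log2 difference -5.82 ± 0.25, adjusted p = 3.14e-05). The duodenal count was 5 without duodenum 1, 3 without duodenum 2, 5 without ileum 1 and 5 without ileum 2, the ileal one 5 without duodenum 1, 5 without duodenum 2, 3 without ileum 1, 3 without ileum 2 and 5 without ileum 3, and with the block 12 were higher in the duodenum.

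Several calcium and vitamin D genes varied widely between libraries of 1 region. Of 14 tested members, 3 were higher in the duodenum and 1 in the ileum, with a median of 0.43. In all 28.6% were called, against 15.7% of all tested genes. S100g, the calcium buffer calbindin-D9k, was at 1352, 3273 and 384 FPKM in the duodenum and 27.6, 1247 and 15.1 in the ileum. Ileum 2 held more S100g than duodenum 3, so the regions overlapped, and the difference of 3.85 was called only with the block (adjusted p = 0.0193 against 0.159). Trpv6, the apical calcium channel, was at 0.156, 1.09 and 0.0512 FPKM in the duodenum and 0.014, 0.0332 and 0.0452 in the ileum and did not pass the filter on low values, and its relative Trpv5 was listed at 0 in all 6. The vitamin D receptor Vdr was at 147, 119 and 71.3 FPKM in the duodenum and 91.7, 76.1 and 54.8 in the ileum, a difference of 0.57 that only the block called (adjusted p = 0.0134 against 0.263).

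Of the paracellular route, Cldn15, a channel-forming claudin, was at 446, 492 and 512 FPKM in the duodenum and 187, 211 and 182 in the ileum (log2 difference 1.32 ± 0.16, adjusted p = 0.00236), and Cldn2, another, was at 26.5, 23.3 and 28.1 FPKM in the duodenum and 59.5, 51.7 and 54.5 in the ileum (log2 difference -1.06 ± 0.13, adjusted p = 0.00272). They ran in opposite directions with no overlap. Cyp2r1, a vitamin D 25-hydroxylase, was at 1.58, 1.42 and 1.12 FPKM in the duodenum and 0.536, 0.478 and 0.282 in the ileum (log2 difference 0.73 ± 0.14, adjusted p = 0.0145). Slc37a2, a sugar-phosphate carrier known to respond to the hormone, was at 32.5, 45.2 and 5.45 FPKM in the duodenum and 0.632, 0.988 and 0.771 in the ileum (log2 difference 3.59 ± 0.66, adjusted p = 0.0123), a call lost without ileum 2. Slc30a10, a manganese exporter that also responds to it, was at 55.0, 59.6 and 15.1 FPKM in the duodenum and 6.77, 18.5 and 2.12 in the ileum and was called with the block alone (adjusted p = 0.00276 against 0.0804), as was Cyp27a1 (0.68, 0.032 against 0.357). With the block 7 rather than 3 members were higher in the duodenum, and without duodenum 1 there was 1. The calcium pump Atp2b1 (0.29), Cldn12 (0.00), the vitamin D receptor's partners Rxra (0.01) and Rxrb (-0.11) and Pdia3 (-0.22) were not called.

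Among detoxifying enzymes, most that were called were higher in the duodenum. Of 35 tested glutathione transferases and antioxidant enzymes, 17 were higher in the duodenum and 3 in the ileum, with a median of 0.62. Gsta1 was at 608, 548 and 499.8 FPKM in the duodenum and 34.2, 23.1 and 35.9 in the ileum (log2 difference 4.13 ± 0.20, adjusted p = 4.76e-05). Gsta4, which clears lipid peroxidation products, was at 315, 306 and 213 FPKM in the duodenum and 30.5, 40.5 and 26.6 in the ileum (log2 difference 3.05 ± 0.22, adjusted p = 0.000339). Gstm6 was at 73.3, 70.4 and 39.6 FPKM in the duodenum and 5.11, 3.85 and 3.42 in the ileum (log2 difference 3.56 ± 0.26, adjusted p = 0.00034). These transferases conjugate glutathione to reactive compounds, and the lowest duodenal value of all 3 was several times the highest ileal one. Near-identical family members can share reads, so levels of single transferases are uncertain. The duodenal count was 10 without duodenum 1, 9 without duodenum 2, 10 without ileum 1 and 11 without ileum 2, and 11 each on the values as deposited, with quantile normalization and on recovered reads.

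Of 41 tested genes of xenobiotic oxidation and efflux, 29.3% were called, against 15.7% of all tested genes. In the duodenum 10 were higher and in the ileum 2, with a median of 0.65. Their regulator Nr1i3, the nuclear receptor CAR, was at 39.5, 42.0 and 29.4 FPKM in the duodenum and 4.93, 4.43 and 3.71 in the ileum (log2 difference 2.82 ± 0.17, adjusted p = 0.000149). Cyp3a13, a cytochrome P450, was at 829, 746 and 565 FPKM in the duodenum and 259, 187 and 193 in the ileum (log2 difference 1.74 ± 0.22, adjusted p = 0.00318), and the conjugating enzyme Ugt1a6a was at 2.25, 1.81 and 1.79 FPKM in the duodenum and 0.469, 0.499 and 0.58 in the ileum (log2 difference 0.96 ± 0.13, adjusted p = 0.00368). With the block the counts were 24 and 6, and the duodenal count was 5 without duodenum 1, 5 without duodenum 2 and 6 without ileum 2.

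Of 57 tested subunits of oxidative phosphorylation, 28 were higher in the duodenum, 1 (Atp5j, listed at 0 in duodenum 1) was higher in the ileum and 28 were not called, and the median was 0.83. Sdhd, a membrane subunit of complex II, was at 539.8, 564 and 645 FPKM in the duodenum and 223, 191 and 270.3 in the ileum (log2 difference 1.36 ± 0.19, adjusted p = 0.00446). Sdha, the flavoprotein of complex II, was at 344, 312 and 313 FPKM in the duodenum and 168, 169 and 158 in the ileum (log2 difference 0.97 ± 0.14, adjusted p = 0.00527). Uqcrc1, a core subunit of complex III, was at 470.1, 481 and 581 FPKM in the duodenum and 211, 254 and 237 in the ileum (log2 difference 1.12 ± 0.17, adjusted p = 0.0063). The regions did not overlap for these 3, and the number of subunits past the threshold moved strongly with the setting. It was 12 without duodenum 1, 6 without duodenum 2, 15 without duodenum 3, 5 without ileum 1 and 8 without ileum 2, 13 on the values as deposited, 16 with upper quartile scaling, 15 with no filter, 44 without both libraries numbered 3 and 54 with the block.

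Among genes of lipid synthesis, most that were called were higher in the ileum. Of 13 tested genes of de novo lipogenesis, 10 were higher in the ileum and 2 in the duodenum, with a median of -1.06. Scd2, a stearoyl-CoA desaturase, was at 3.88, 3.94 and 6.77 FPKM in the duodenum and 30.1, 27.0 and 27.3 in the ileum (log2 difference -2.35 ± 0.20, adjusted p = 0.000661). The duodenal members were Elovl6, an elongase, at 34.2, 36.6 and 40.4 FPKM in the duodenum and 13.3, 7.86 and 14.4 in the ileum (log2 difference 1.60 ± 0.22, adjusted p = 0.0042), and Fads1, a desaturase of polyunsaturated fatty acids, at 0.81. Of 22 tested cholesterol synthesis genes, 5 were higher in the ileum and 0 in the duodenum, with a median of -0.47. That was 22.7% called, against 15.7% of all tested genes. Hmgcs1, which makes the precursor of mevalonate, was at 21.2, 20.4 and 23.8 FPKM in the duodenum and 61.0, 36.7 and 49.5 in the ileum (log2 difference -1.11 ± 0.20, adjusted p = 0.0105). The lipogenic count was 3 without duodenum 1, 2 without ileum 1 and 3 without ileum 2, and 6 with no filter. The sterol count was 3 without duodenum 1, 3 without duodenum 2, 8 without duodenum 3 and 3 without ileum 1, and 9 with the block. Several lipogenic genes are also adipocyte genes, whose levels are given below.

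Nitrogen metabolism had a few sharp regional members. Inducible nitric oxide synthase (Nos2) was at 0, 0 and 0.887 FPKM in the duodenum and 38.0, 12.7 and 18.2 in the ileum (log2 difference -4.14 ± 0.42, adjusted p = 0.00128). Arginase 2 (Arg2), which draws on the same arginine, was at 415, 429 and 320.0 FPKM in the duodenum and 80.4, 74.6 and 43.5 in the ileum (log2 difference 2.57 ± 0.26, adjusted p = 0.00128). Nos2 was listed at 0 in duodenum 1 and 2, the libraries with the highest Arg2. Adenosine deaminase (Ada) was at 667, 542 and 893 FPKM in the duodenum and 81.4, 64.3 and 143 in the ileum (log2 difference 2.90 ± 0.32, adjusted p = 0.00183), and brain-type creatine kinase (Ckb) was at 551, 541 and 847 FPKM in the duodenum and 66.8, 92.3 and 74.7 in the ileum (log2 difference 3.02 ± 0.23, adjusted p = 0.000436). Of 13 tested genes of creatine and purine handling, 5 were higher in the duodenum and 0 in the ileum, with a median of 0.41. Of 16 arginine and urea genes, 3 and 2 were called (31.2% against 15.7% of all tested genes), and 5 and 2 with the block.

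**Figure D3:**
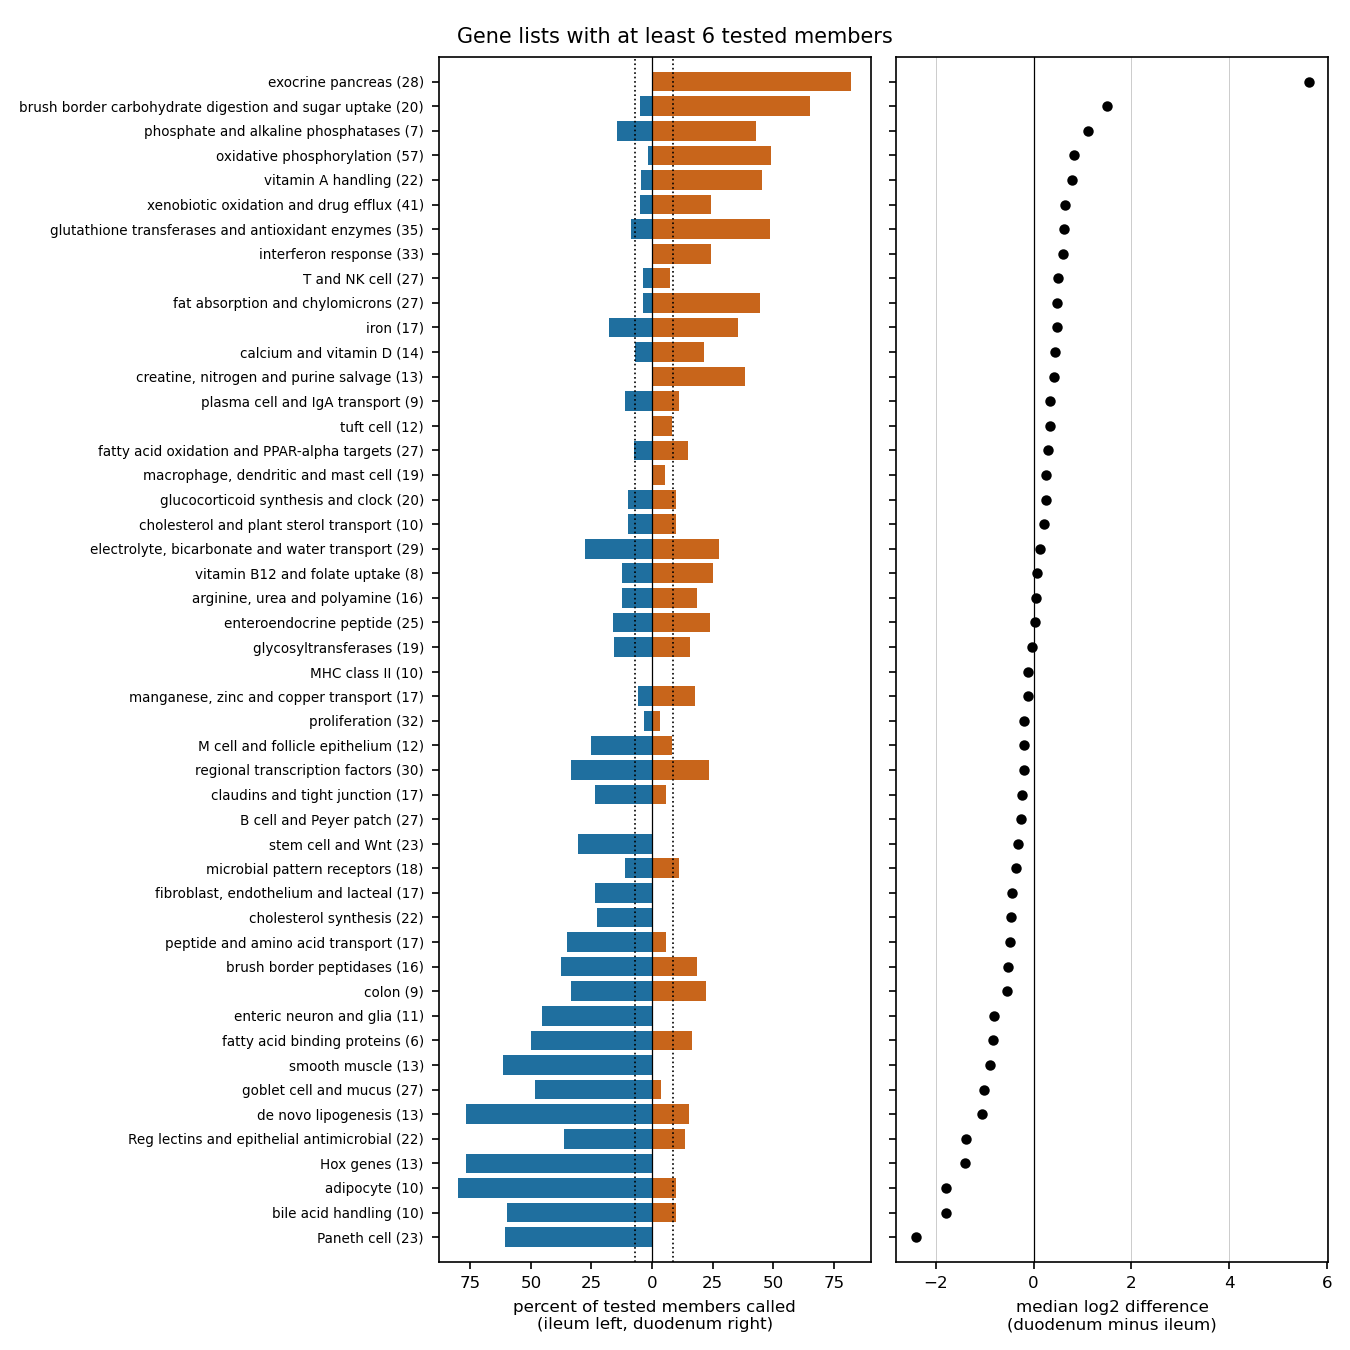
For each gene list with at least 6 tested members, the percent of members called higher in the ileum (blue, left) and in the duodenum (orange, right), with dotted lines at the 6.91% and 8.81% of all tested genes, and the median log2 difference (right panel). By median the pancreatic, sugar and phosphate lists lead on the duodenal side, and the Paneth, bile acid and adipocyte lists on the ileal side.

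Paneth cell peptides were far more abundant in the ileum. Of 23 tested members, 14 were higher in the ileum and 0 in the duodenum, with a median of -2.41. The summed level of the list was 4601, 10462 and 28443 FPKM in the duodenum and 92781, 95638 and 167865 in the ileum. The alpha-defensin Defa21 was at 23.0, 75.2 and 398 FPKM in the duodenum and 15467, 17648 and 30414 in the ileum (log2 difference -7.81 ± 0.92, adjusted p = 0.00227). Defa22 was at 27.4, 76.3 and 374 FPKM in the duodenum and 15632, 17674 and 30238 in the ileum and Defa20 at 25.7, 31.6 and 228 FPKM in the duodenum and 8949, 7154 and 20224 in the ileum. These defensins were present in every duodenal library and highest there in duodenum 3, while Defa25 was listed at 0 in all 3 and at 1.43, 1.70 and 1.93 FPKM in the ileum. The predicted gene Gm15308 was at 4.57, 26.3 and 67.1 FPKM in the duodenum and 10622, 5359 and 28910.5 in the ileum (log2 difference -9.08 ± 0.95, adjusted p = 0.00148). Defensin genes are near-identical copies, so the level of any single copy is uncertain. The count was 8 without duodenum 2, 6 without ileum 1, 6 without ileum 2 and 7 without ileum 3.

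Of 27 tested goblet cell and mucus genes, 13 were higher in the ileum and 1 in the duodenum, with a median of -1.01. The gel-forming mucin Muc2 was at 56.5, 40.8 and 37.4 FPKM in the duodenum and 155, 158 and 119.5 in the ileum (log2 difference -1.68 ± 0.20, adjusted p = 0.00241). Atoh1, the transcription factor of all secretory cells, was at 4.17, 4.62 and 4.13 FPKM in the duodenum and 10.3, 9.94 and 12.5 in the ileum (log2 difference -1.16 ± 0.14, adjusted p = 0.00236). Sytl2, a vesicle docking protein, was at 3.39, 3.45 and 4.67 FPKM in the duodenum and 12.3, 11.4 and 11.6 in the ileum (log2 difference -1.41 ± 0.15, adjusted p = 0.00142). The regions did not overlap for these 3, but the summed level of the list, which includes abundant Zg16, Tff3 and Spink3, overlapped between regions. With the block 3 members were higher in the duodenum.

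Gut hormones divided by region. Gip, which raises insulin after a meal, was at 233, 284 and 295 FPKM in the duodenum and 35.4, 51.8 and 32.9 in the ileum (log2 difference 2.75 ± 0.20, adjusted p = 0.000397). Neurotensin (Nts) was at 4.63, 6.49 and 7.10 FPKM in the duodenum and 184, 148 and 175 in the ileum (log2 difference -4.60 ± 0.18, adjusted p = 2.11e-05). Peptide YY (Pyy), which slows transit, was at 1.96, 2.02 and 0.721 FPKM in the duodenum and 35.5, 44.8 and 53.7 in the ileum (log2 difference -4.18 ± 0.26, adjusted p = 0.000149). No hormone of these 3 overlapped, and 6 of 25 tested enteroendocrine genes were higher in the duodenum and 4 in the ileum, with a median of 0.03. The fatty acid receptor Gpr120 was at 0.923, 0.744 and 1.32 FPKM in the duodenum and 5.20, 3.49 and 5.56 in the ileum (log2 difference -1.52 ± 0.19, adjusted p = 0.00308). Of 12 tuft cell genes, 1, Alox5ap, was called (0.48), a share of 8.3% against 15.7% of all tested genes, and 12 alternatives lost it.

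Of 23 tested stem cell and Wnt genes, 7 were higher in the ileum and 0 in the duodenum, with a median of -0.32. That was 30.4% called, against 15.7% of all tested genes. Axin2, a Wnt target, was at 5.40, 6.54 and 6.10 FPKM in the duodenum and 16.4, 17.2 and 15.5 in the ileum (log2 difference -1.31 ± 0.13, adjusted p = 0.00112). Wnt3, the ligand made by Paneth cells, was at 0.452, 0.431 and 0.782 FPKM in the duodenum and 2.83, 2.84 and 3.63 in the ileum (log2 difference -1.40 ± 0.15, adjusted p = 0.0017). Ephb3, a receptor that sorts crypt cells, differed by -0.71. The Wnt3 and Axin2 values did not overlap, and Paneth cell transcripts moved in the same direction in the same libraries. Their part in the Wnt difference was not tested. The count was 4 without duodenum 1, 2 without duodenum 2, 4 without ileum 1, 4 without ileum 2 and 4 without ileum 3. Of 32 proliferation genes, 1 was called in each direction, Rrm2 of nucleotide synthesis (1.17) in the duodenum and cyclin D1 (Ccnd1, -1.21) in the ileum. Their share of 6.2% lay below the 15.7% of all tested genes. With the block the ileal proliferation count was 4.

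Lymphocyte genes were variable between libraries of 1 region. Of 27 tested B cell and Peyer patch genes, 0 were called with limma in either direction, 1 had an unadjusted p under 0.05, the fit to recovered reads called 0, and the list summed to 196, 159 and 268 FPKM in the duodenum and 83.7, 363 and 344 in the ileum, so ileum 1 lay below every other library. Without ileum 1, 10 of these genes were called higher in the ileum. T and NK cell genes summed to 499, 361 and 980.4 FPKM in the duodenum and 143, 178 and 487 in the ileum. Itgae, the integrin of intraepithelial lymphocytes, was at 8.53, 6.16 and 10.1 FPKM in the duodenum and 2.76, 3.68 and 2.96 in the ileum (log2 difference 1.15 ± 0.19, adjusted p = 0.00868). Granzyme B (Gzmb) was at 39.5, 24.1 and 38.9 FPKM in the duodenum and 7.67, 6.65 and 20.5 in the ileum (log2 difference 1.61 ± 0.40, adjusted p = 0.0364), a call that 7 alternatives lost, and Il7r was higher in the ileum (-0.77). With the block 11 of the 27 T and NK genes were higher in the duodenum against 2 without it, and 8 without ileum 3. The main fit called 11.1% of them in either direction, below the 15.7% of all tested genes. Pigr, which carries IgA across the epithelium, was at 2152, 1404 and 2129.5 FPKM in the duodenum and 460.3, 395 and 798 in the ileum (log2 difference 1.82 ± 0.33, adjusted p = 0.0115).

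Of 33 tested interferon response genes, 8 were higher in the duodenum and 0 in the ileum, with a median of 0.60. That was 24.2% called, against 15.7% of all tested genes. Ifit1, an antiviral RNA sensor, was at 51.7, 52.3 and 53.2 FPKM in the duodenum and 18.0, 27.8 and 17.6 in the ileum (log2 difference 1.30 ± 0.19, adjusted p = 0.00495). Usp18, which damps interferon signalling, was at 16.9, 16.2 and 13.1 FPKM in the duodenum and 4.39, 6.92 and 4.34 in the ileum (log2 difference 1.42 ± 0.20, adjusted p = 0.00417). Ifi27l2b was at 839.7, 1071 and 847 FPKM in the duodenum and 233, 349.6 and 239 in the ileum (log2 difference 1.76 ± 0.23, adjusted p = 0.00329). Ileum 2 was the highest ileal library for all 3 and still lay below the duodenum. The count was 3 without duodenum 1, 3 without duodenum 2 and 3 without ileum 1, 4 on the values as deposited and 17 with the block. The summed T and NK cell levels given above overlapped between regions, and their part in the interferon difference was not tested.

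The Reg lectins and other epithelial antimicrobials went both ways. Reg1 (mm9 chromosome 6, 78375974 to 78378661), a secreted lectin, was at 3290.2, 4448 and 4948 FPKM in the duodenum and 33.5, 17.0 and 24.9 in the ileum (log2 difference 7.37 ± 0.28, adjusted p = 2.11e-05). The gasdermin C copies were ileal, with Gsdmc2 at 0.058, 0.07 and 0.479 FPKM in the duodenum and 14.0, 12.4 and 15.8 in the ileum (log2 difference -3.66 ± 0.18, adjusted p = 4.76e-05) and Gsdmc3 at 0.0315, 0.0381 and 0.0579 FPKM in the duodenum and 5.46, 5.87 and 5.35 in the ileum (log2 difference -2.65 ± 0.12, adjusted p = 3.27e-05). Every ileal Reg1 value was far below the lowest duodenal one, and both gasdermin copies were at trace level in the duodenum. Of 22 tested members, 3 were higher in the duodenum and 8 in the ileum. The ileal count was 2 without ileum 1, 3 without ileum 2 and 2 without ileum 3, and 12 with the block. Reg1 is also made by the exocrine pancreas, whose transcripts are given next.

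Transcripts of the exocrine pancreas were present in every duodenal library. Of 28 tested members, 23 were higher in the duodenum and 0 in the ileum, with a median of 5.63. The amylase Amy2a5 was at 4496, 25228 and 3114 FPKM in the duodenum and 517, 45.0 and 14.2 in the ileum (log2 difference 6.63 ± 1.32, adjusted p = 0.016). The elastase Cela2a was at 1156, 6888 and 827 FPKM in the duodenum and 99.2, 8.78 and 3.47 in the ileum (log2 difference 6.84 ± 1.23, adjusted p = 0.0111), and chymotrypsinogen Ctrb1 at 1170.0, 7481 and 1358 FPKM in the duodenum and 88.3, 10.2 and 5.50 in the ileum (log2 difference 6.93 ± 1.07, adjusted p = 0.00636). Duodenum 2 was the highest library for all 3, and ileum 1 was the highest of the ileal ones. The insulin gene Ins2 was also highest in duodenum 2, at 5.30, 26.1 and 0.205 FPKM in the duodenum and 0, 0 and 0.113 in the ileum. The summed level of the list was 18267, 81345 and 19326 FPKM in the duodenum and 7907, 7234 and 9934 in the ileum, of which Zg16 and Spink3, also goblet cell genes, make up most in the ileum. Without ileum 2 the count was 12. The part of pancreatic transcripts in other duodenal differences was not tested.

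Genes of 2 glands near the pylorus were also duodenal. Tff2, the trefoil peptide of Brunner glands, was at 42.8, 216 and 35.5 FPKM in the duodenum and 4.53, 0.429 and 0.167 in the ileum (log2 difference 5.07 ± 0.81, adjusted p = 0.00713). Gkn3, a gastrokine, was at 8.09, 11.3 and 6.25 FPKM in the duodenum and 0.258, 0.69 and 0.418 in the ileum (log2 difference 2.69 ± 0.22, adjusted p = 0.000571), and the protease Ctse was at 9.18, 9.82 and 6.69 FPKM in the duodenum and 0.299, 0.391 and 1.05 in the ileum (log2 difference 2.61 ± 0.22, adjusted p = 0.000652). The Tff2 level was highest in duodenum 2, the library with the most pancreatic transcript. No other stomach gene of the list passed the filter on low values.

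Of 13 tested smooth muscle genes, 8 were higher in the ileum and 0 in the duodenum (median -0.90), and the list summed to 299, 412 and 366 FPKM in the duodenum and 885, 967 and 745 in the ileum. Actg2, enteric smooth muscle actin, was at 34.9, 54.7 and 49.0 FPKM in the duodenum and 158, 167 and 127 in the ileum (log2 difference -1.70 ± 0.20, adjusted p = 0.00245). Of 11 enteric neuron and glia genes, 5 were higher in the ileum (median -0.82), and the list summed to 28.2, 36.7 and 36.9 FPKM in the duodenum and 68.5, 72.6 and 69.9 in the ileum. Hand2, a factor of enteric neurons and muscle, was at 1.77, 2.33 and 1.89 FPKM in the duodenum and 8.23, 6.21 and 4.14 in the ileum. The neuron count was 2 without duodenum 1, 3 without duodenum 2, 1 without ileum 2 and 3 without ileum 3.

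Of 10 adipocyte genes, 8 were higher in the ileum and 1 in the duodenum (median -1.79), and the list summed to 97.2, 195 and 111 FPKM in the duodenum and 469, 363 and 346 in the ileum. Adiponectin (Adipoq) was at 0.889, 5.66 and 1.36 FPKM in the duodenum and 24.6, 16.1 and 15.5 in the ileum (log2 difference -2.64 ± 0.46, adjusted p = 0.00967), and leptin reached at most 1.23 FPKM. The single duodenal member was Pparg, at 4.40, 6.35 and 5.05 FPKM in the duodenum and 1.41, 2.08 and 1.30 in the ileum (log2 difference 1.27 ± 0.18, adjusted p = 0.00449). None of the summed levels of muscle, neuron or adipocyte lists overlapped between regions. The adipocyte count was 3 without duodenum 1, 3 without ileum 1 and 3 without ileum 2. Of 17 fibroblast and vessel genes, 4 were higher in the ileum and 0 in the duodenum, 23.5% against 15.7% of all tested genes. They were led by the BMP antagonist Grem1 (-1.79), Lum (-1.34) and decorin (Dcn, -0.98). The part of these cells in the ileal calls, Fabp4 and the Hox genes included, was not tested.

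**Figure D4:**
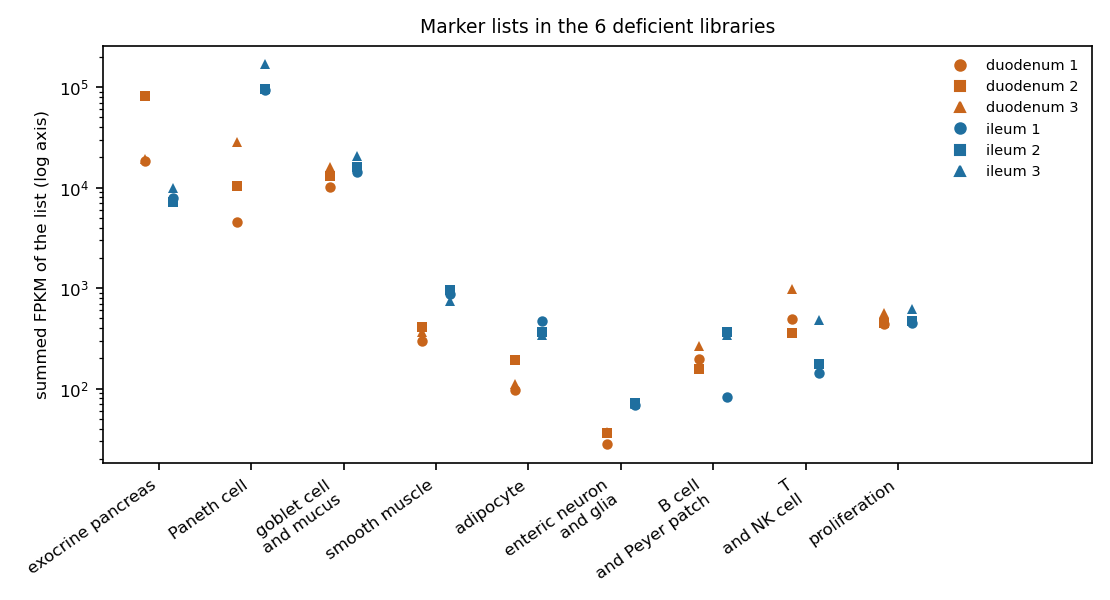
Summed FPKM of marker lists (log axis), 1 point per library, orange for the duodenum and blue for the ileum, with symbols for library numbers 1 to 3. Pancreatic transcript peaks in duodenum 2, Paneth, muscle, adipocyte and neuron lists are higher in all 3 ileal libraries, B cell transcript is lowest in ileum 1, and the summed levels of proliferation genes overlap.

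Several of the sharpest regional genes belong to none of these groups. Gm766 (mm9 chromosome 6, 142733724 to 142753022) was at 533, 456 and 466 FPKM in the duodenum and 1.83, 1.39 and 1.77 in the ileum (log2 difference 7.51 ± 0.13, adjusted p = 8.55e-07), with the smallest p of all. Plb1, a brush border phospholipase (mm9 chromosome 5, 32535081 to 32668893), was at 0.434, 0.722 and 0.2 FPKM in the duodenum and 324, 334 and 212 in the ileum (log2 difference -7.63 ± 0.22, adjusted p = 9.43e-06). Tmigd1, an epithelial adhesion protein (mm9 chromosome 11, 76715661 to 76730089), was at 3.83, 4.60 and 10.1 FPKM in the duodenum and 761, 594 and 956 in the ileum (log2 difference -6.82 ± 0.33, adjusted p = 4.76e-05). Fam151a (mm9 chromosome 4, 106406494 to 106420897) was at 0.225, 0.209 and 0.271 FPKM in the duodenum and 101, 126 and 55.1 in the ileum (log2 difference -6.18 ± 0.28, adjusted p = 3.81e-05). None of the 4 came near to overlapping between regions.

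The treated libraries repeat the regional comparison in other mice. Of 12095 genes tested over 4 against 4 libraries, 2880 (23.8%) were called, 1674 higher in the duodenum (13.8%) and 1206 in the ileum (9.97%). Of the 1868 genes called in deficiency, 1844 were tested there and 1820 (98.7%) differed in the same direction, as did 71.9% of the genes not called in deficiency. Called in the same direction were 1411, and 1 was called in the opposite direction. Fabp6 differed by -10.63 in deficiency and by -6.82 ± 0.99, adjusted p = 0.00192 in treated mice. Fabp1 differed by 5.23 and by 3.77 ± 0.55, adjusted p = 0.00194. Slc46a1 differed by 4.88 and by 5.09 ± 0.32, adjusted p = 3.54e-05, Pdx1 by 4.62 and by 5.28 ± 0.13, adjusted p = 3.76e-07, and Gip by 2.75 and by 3.02 ± 0.27, adjusted p = 0.000185. The order of the regions was thus the same for all 5. Tff2 differed by 5.07 and by 8.88 ± 1.15, adjusted p = 0.00113, and Gkn3 by 2.69 and by 7.34 ± 1.36, adjusted p = 0.00599. All treated duodenal libraries but treated 1 are columns named by 4-digit numbers. Those columns hold stomach transcripts that the deficient duodenal columns mostly lack, though Gkn3 and Ctse were present in the latter at the values given above. The part of these transcripts in the larger treated differences of Tff2 and Gkn3 was not tested.

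**Figure D5:**
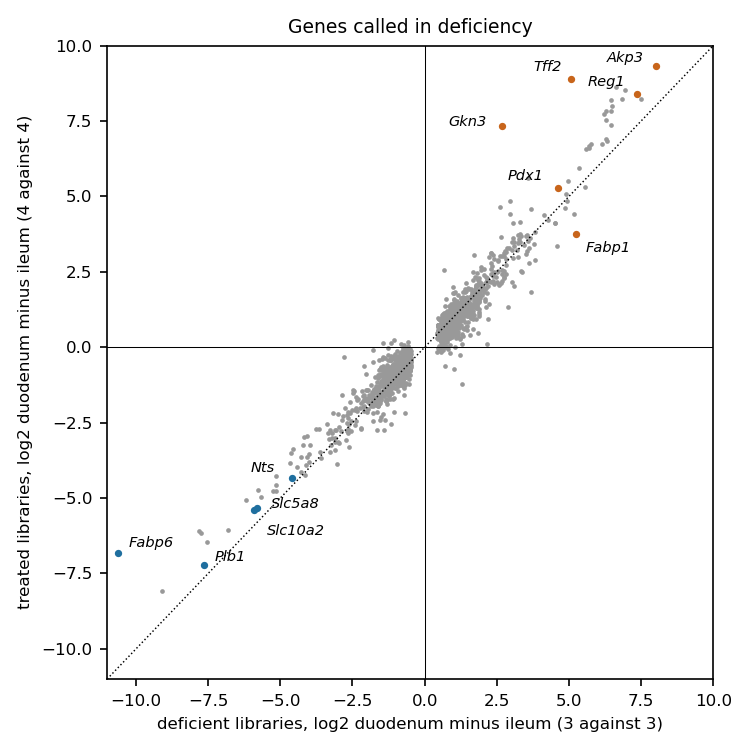
Difference of duodenum minus ileum (log2) in the treated libraries (y axis) against the deficient libraries (x axis) for genes called in deficiency, 1 point per gene, with the line of equal values. Most points lie near the line, Fabp6 and Fabp1 lie nearer 0 in treated mice, and Tff2 and Gkn3 lie above the line.

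An interaction test asked which regional differences differed between the treated and deficient libraries. It cannot assign a difference to treatment, because the groups also differ in column naming, depth, sex and labelled age. The treated columns named by 4-digit numbers held 13183801 to 15302868 recovered reads, the deficient ones 18898393 to 31163559. Xist was at 26.1 to 69.7 FPKM in treated 3xD5711 and 3xD5720 of both regions and at most 0.123 in the deficient libraries. Over 14 libraries and 12489 genes the interaction was called for 1 gene (0.00801%), and 497 (3.98%) had an unadjusted p under 0.05. That gene was Ap1g1, a subunit of the clathrin adaptor of the Golgi, with a difference of differences (treated minus deficient) of -2.51 (SE 0.22, adjusted p = 0.000482). In deficiency it was listed at 1.11, 1.85 and 1.37 FPKM in the duodenum and 0, 0 and 0.00464 in the ileum. In treated mice it was listed at 0, 0, 0.0644 and 0.0339 and at 1.69, 1.90, 0.848 and 1.32. Most cells use Ap1g1, so a value of 0 is given only as listed. The genes with the next smallest p, Rhov (1.12), Nkx6-3 (1.36), Mavs (-1.04) and Ifit2 (-1.55), had an adjusted p of 0.94. Without treated duodenum 1 the interaction was called for 24 genes, without treated ileum 3xD5734 for 2, and without the treated columns named by 4-digit numbers for 0.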

How the data were processed

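Polyadenylated RNA was sequenced after preparation with a NEBNext kit, and reads were mapped in CLC genomics workbench, per the labels' protocols. Other programs listed per the submitters' processing notes, without their roles, are DESeq2, DESeq 1.14.0 and kallisto 0.45.0, and the build listed is mm9. The authors deposited FPKM tables of 21441 genes, and the 7-library tables of duodenum and ileum were used. The 8-library ileum table equals the duodenal one in all 171528 values and was not used.

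The 6 columns were put on 1 scale by the median ratio over 15134 genes above 0 in all of them. Genes with 1 FPKM or more in at least 3 columns entered limma 3.58.1 (R 4.3.3) as log2(FPKM + 1) (trend, two-sided, Benjamini-Hochberg, 0.05), n = 3 a region. No source says that the libraries came from separate mice, so p-values measure the spread between these libraries. Whole reads were recovered from the FPKM steps for 14424 genes (82.7% of those tried, within 0.0001 of a whole number) and give the depth. The code was tested on simulated data.

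Deviations from the group means over 11882 genes correlated by 0.37, 0.20 and 0.64 between libraries of the same number and by -0.54 to 0.39 between libraries of different numbers, the highest being duodenum 2 with ileum 1. Each of the 3 is over 0.1, and the library number was used as a block in an alternative setting, not in the main test. Duodenum 2 with ileum 1 lay above 1 with 1 and 2 with 2. The correlations thus set the libraries numbered 3 apart and do not show that numbers 1 and 2 pair. Calls made only with the block rest on a pairing that the labels do not give. List counts that the block moved by over 1.5 times are given beside the result or in the closing section.

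Members and 53 gene lists were chosen with earlier results of these data known. Named genes are, in each direction, the 10 with the largest difference among called genes with a mean of at least 10 FPKM in the higher region, up to 3 called members of each list with the smallest p, all members of the lists on regional transcription factors, bile acids, B12 and folate, iron, calcium, fatty acid binding and vitamin A, and the 5 genes with the smallest interaction p. Further names (Alpi, Apoa1, Apoa4, Apob, Atp5j, Cyp3a11, Epcam, Hoxa5, Hoxb2, Ins2, Lct, Mlxipl, Mttp, Reg3b, Sis, Slc2a5, Slc5a1, Vil1, Zg16, Spink3, Tff3 and stomach genes) were chosen after their values were seen, as were the promoter windows and motifs. Gene positions are mm9, and promoter windows are GRCm38.p6. Values of some single members of these lists are not reported here.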

Additional observations from a re-analysis of the deposited data

Results flagged for a closer look

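The regional difference of Ap1g1 in treated mice minus that in deficient mice was -2.51 on the log2 scale (limma interaction, adjusted p = 0.000482). It is given here because the 2 regional differences differed in the interaction test. That test cannot separate treatment from column naming, depth, sex and labelled age. The duodenal libraries held Ap1g1 in deficiency and the ileal libraries after treatment, and the other group of each region was listed at or near 0.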

How the results depend on the processing

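Each of 21 other settings was compared with the 1868 calls, and every call that could be tested kept its direction in all of them. The values of the regions were apart for all 1868, so settings that keep the scale could not reverse a sign. The kept direction is therefore no added support for the calls. Leaving out 1 library gave 897 to 1820 calls. The library number as a block gave 3492, and array weights, whose fit did not converge, gave 3971. The block did not lose any of the 1868 calls. It also took the ileal counts from 3 to 5 for glutathione and antioxidant genes, from 1 to 2 for sugar and for fat absorption, and from 0 to 1 for interferon response and creatine genes, and the duodenal counts from 1 to 2 for adipocyte and tuft cell genes and from 0 to 1 for cholesterol synthesis. Of further list counts, leaving out 1 library took the duodenal T and NK count from 2 to 1 (any but ileum 3), the duodenal arginine count from 3 to 1 (duodenum 1, duodenum 2 or ileum 1), the ileal fibroblast count from 4 to 2 (duodenum 1 or ileum 2) or 1 (duodenum 2), the duodenal Reg and antimicrobial count from 3 to 1 (ileum 2), the duodenal proliferation count from 1 to 0 (any but duodenum 3 and ileum 3) and the ileal xenobiotic count from 2 to 0 (duodenum 1, ileum 1 or ileum 2). Both pattern receptor counts went from 2 to 1 without duodenum 1, duodenum 2, ileum 1 or ileum 2. Other settings gave 1419 calls (voom on recovered reads, 9478 genes tested, 709 duodenal and 710 ileal) to 2345 (without both libraries numbered 3, chosen after seeing the data). At least 2-fold calls ran from 604 to 1088 against 881. The treated comparison gave 1930 to 3423 calls against 2880, and agreement in sign 98.1% to 98.9%. On deposited values 31.1% of treated calls were duodenal against 58.1%. The interaction was called for 1 to 24 genes with 1 library left out (24 without treated duodenum 1, 2 without treated ileum 3xD5734), and for 0 without the treated columns named by 4-digit numbers. The cause was not tested. Of 176 named called genes, 137 stayed called under every setting that tested them, 39 lost the call under at least 1, and 0 reversed. Genes that passed the filter only through 1 region went untested when a library of that region was left out. Pdx1, Hoxc8 and Fgf15, tested in 17, 17 and 16 of the 21 settings, were of this kind. For such genes a kept call does not show that it stands without a library of that region. Among the 39 were Hnf4a, Cdx1, Fabp2, Ostb, Epas1, Ireb2, Slc37a2, Amy2a5, Cela2a, Gzmb and Hp. Depth limits genes near 1 FPKM, and 3 libraries a region limit the precision of all values.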

Other observations

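Barrier genes not described above also differed. Of 17 tested claudin and tight junction genes, 4 were higher in the ileum and 1, Cldn15, in the duodenum, with a median of -0.25. In all 29.4% were called, against 15.7% of all tested genes. Cldn4, a sealing claudin, was at 25.4, 26.0 and 32.0 FPKM in the duodenum and 57.1, 56.7 and 59.6 in the ileum (log2 difference -1.04 ± 0.14, adjusted p = 0.00342). With the block 7 were higher in the ileum, and 2 with a filter of 5 FPKM. Of 19 glycosyltransferases, 3 were called in each direction, 31.6% in all against 15.7% of all tested genes. Among them was B3gnt6, which extends mucin sugars, at 0.169, 0.154 and 0.363 FPKM in the duodenum and 2.40, 1.86 and 1.90 in the ileum (log2 difference -1.31 ± 0.14, adjusted p = 0.00155). For these enzymes the duodenal count was 0 without duodenum 1, duodenum 2, ileum 1 or ileum 2 and 1 on the values as deposited or with quantile normalization, and the ileal count was 1 without ileum 2.

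Among 20 genes of glucocorticoid synthesis and the clock, 2 were called in each direction, near the share of all tested genes. With the block 7 were higher in the duodenum, without duodenum 3 there were 4, and without duodenum 1, duodenum 2 or ileum 2 there was 1. Hsd11b2, which inactivates corticosterone, was at 1.96, 1.19 and 2.44 FPKM in the duodenum and 18.2, 22.2 and 12.6 in the ileum (log2 difference -2.70 ± 0.25, adjusted p = 0.000894). Tsc22d3, a glucocorticoid target, was at 24.4, 27.9 and 23.1 FPKM in the duodenum and 10.6, 11 and 10.4 in the ileum (log2 difference 1.16 ± 0.13, adjusted p = 0.00164). The enzyme was thus higher in the ileum and the target in the duodenum, with no overlap for either. Of 18 genes of the pattern receptor list, which also holds the epithelial cytokine Il18, 2 were called in each direction. Il18 was at 8.08, 7.81 and 6.12 FPKM in the duodenum and 0.732, 0.85 and 2.20 in the ileum (log2 difference 1.93 ± 0.25, adjusted p = 0.00342). Naip1, an inflammasome sensor, was at 17.5, 16.5 and 16.1 FPKM in the duodenum and 35.9, 31.1 and 30.9 in the ileum (log2 difference -0.92 ± 0.12, adjusted p = 0.00367). With the block 7 genes of that list were higher in the ileum, and without it 22.2% were called in either direction against 15.7% of all tested genes.

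Metal carriers other than iron were mostly not called. Of 17 tested, 3 were higher in the duodenum and 1 in the ileum, 23.5% in all against 15.7% of all tested genes. The count of 3 was 1 without duodenum 1, duodenum 2, ileum 1 or ileum 2, and the ileal count was 0 with any 1 library but ileum 2 left out. Slc39a14, a zinc and manganese importer, was at 98.7, 72.1 and 58.5 FPKM in the duodenum and 27.5, 25.9 and 19.8 in the ileum (log2 difference 1.59 ± 0.22, adjusted p = 0.00432). Of 27 genes of fatty acid oxidation, 4 were higher in the duodenum and 2 in the ileum, with a median of 0.29. In all 22.2% were called, against 15.7% of all tested genes. Ehhadh, a peroxisomal enzyme, was at 99.9, 72.4 and 63.0 FPKM in the duodenum and 35.7, 32.2 and 23.3 in the ileum (log2 difference 1.33 ± 0.23, adjusted p = 0.00883), and Angptl4, a lipase inhibitor, ran the other way at 6.97, 4.42 and 3.15 FPKM in the duodenum and 17.0, 14.4 and 13.7 in the ileum (log2 difference -1.50 ± 0.24, adjusted p = 0.00739). With the block the counts were 10 and 5, and without duodenum 3 the duodenal count was 7.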
